A study of Mus musculus with 6 samples.

Results

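The CC chemokine genes examined were Ccl2, Ccl3, Ccl4, Ccl5, Ccl6, Ccl9, Ccl11, Ccl17, Ccl22 and Ccl24. They were taken by symbol, and all 10 were rows of a table of 23420 genes. They were compared between mouse eosinophils given the cytokine IL-33 and eosinophils given phosphate-buffered saline (PBS). The cells of both groups carried a wild-type genotype and were grown out of bone marrow. They received stem cell factor (SCF) and FLT3 ligand at 100 ng/mL each until day 4 and IL-5 at 20 ng/mL from then on. On day 14, after removal of dead cells, they were exposed for 3 hours to IL-33 at 2.5 ng/mL (3 libraries) or to PBS (3 libraries). Both groups had therefore matured in IL-5, and no sort for eosinophils is described in the labels. The labels give no mouse strain, sex or age. Nor do they state whether the 3 libraries of a group are separate animals, separate cultures or splits of a single culture. A p-value therefore sets a difference against the scatter of these libraries, which may be technical.

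CC chemokines are small secreted proteins, named for adjacent cysteines near the amino terminus, that bind G protein-coupled receptors on leukocytes and direct their migration along a gradient. Eosinophils are classically drawn into tissue by the eotaxins, Ccl11 and Ccl24 in the mouse, acting on their receptor Ccr3. They are also a source of CC chemokines themselves. IL-33 is an alarmin released by damaged barrier cells, and its receptor signals through MyD88 to NF-κB, a family of transcription factors that acts on many chemokine genes.

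Libraries held between 8218303 and 10785521 reads recovered from the normalized counts. The ribosomal RNA precursor gene Rn45s took 13.7 to 24.8% of them in the PBS libraries and 24.3, 59.6 and 54.8% in IL-33 replicates 1, 2 and 3, which left 4229504 to 7129435 reads for other genes. Across genes, PBS libraries correlated with each other at a Pearson r between 0.984 and 0.9875, and IL-33 replicates 2 and 3 at 0.969. IL-33 replicate 1 correlated with IL-33 replicates 2 and 3 at 0.952 and 0.9225. With PBS replicates 1, 2 and 3 it correlated at 0.941, 0.914 and 0.917. The chemokine and receptor genes tested whose call or direction turned on IL-33 replicate 1 are given with and without it. All 9 eosinophil markers found in the table, among them the granule genes Epx and Prg2, were detected, and all 9 were lower after IL-33, where 14.4% of all genes tested were lower. With edgeR, Ear1, Ear6 and Ccr3 were not called, and with the Rn45s share as a covariate Ear1, Ear2, Ear6 and Ccr3 were not. Their summed normalized count was 50005 to 61374 in PBS libraries and 18106 to 30528 in IL-33 libraries. In bulk RNA, fewer cells of a type and less RNA per cell cannot be told apart.

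Of the 10 genes, 5 passed the filter on low values (a normalized count of at least 10 in at least 3 libraries): Ccl3, Ccl4, Ccl6, Ccl9 and Ccl17. All 5 reached 10 in every library. Ccl9 and Ccl4 were higher after IL-33, and none of the 5 was lower, by limma at a Benjamini-Hochberg adjusted p under 0.05. Of all 10544 genes tested, 31.9% were called: 17.4% of the genes tested were higher and 14.4% were lower. The 5 genes had a median log2 fold change of 0.22, against −0.03 for the whole set of genes tested. Fold changes are differences of log2(normalized count + 1), IL-33 minus PBS, a scale that understates the change of low genes, and each comes with its standard error (SE). Below the filter lay Ccl22, Ccl24 and Ccl5, and no read was counted for Ccl2 or Ccl11 in any of the 6 libraries.

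**Figure D1:**
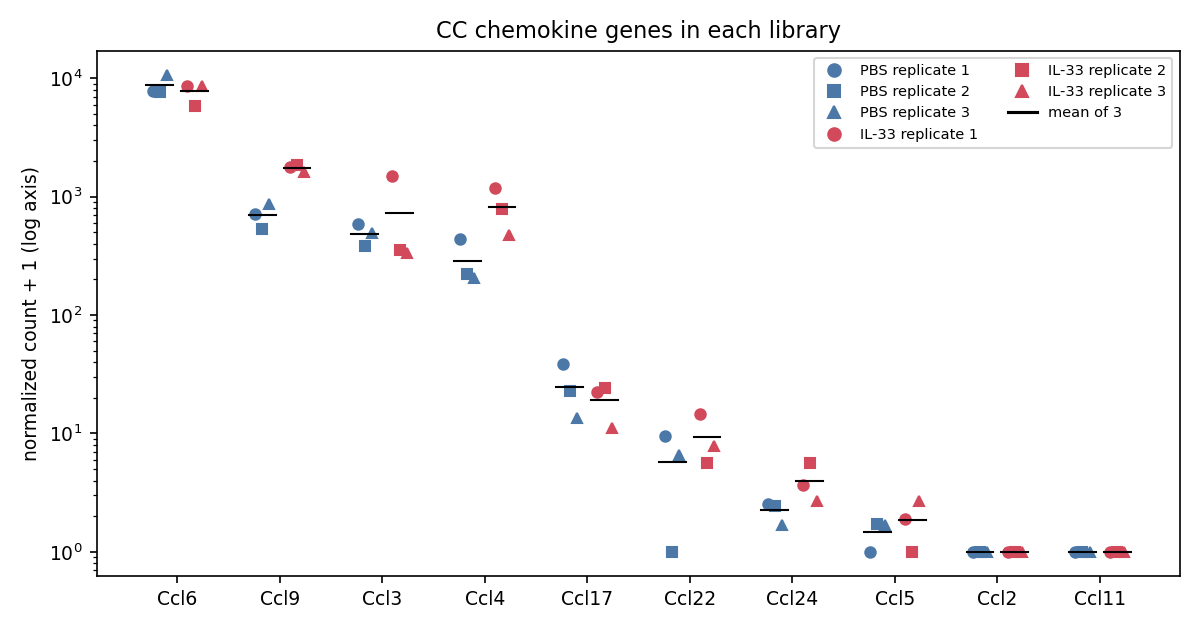
Normalized count plus 1 (log axis) of the 10 CC chemokine genes in each of the 3 PBS (blue) and 3 IL-33 (red) libraries; symbols mark replicate numbers and bars the mean of 3. Ccl9 and Ccl4 have every IL-33 library above every PBS library, Ccl3 has a single IL-33 library at 1501 above the rest, and Ccl2 and Ccl11 sit at 0 reads, drawn at 1.

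Most of the genes lie in clusters (GENCODE vM21 annotation of GRCm38, the mm10 build). On chromosome 11, Ccl5 (83525778 to 83530518), Ccl9 (83572919 to 83578636), Ccl6 (83587882 to 83593087) and Ccl3 (83647844 to 83649355) lie on the minus strand, followed by Ccl4 (83662584 to 83664683) on the plus strand. A second group on the same chromosome holds Ccl2 (82035571 to 82037453) and Ccl11 (82057823 to 82062955), both on the plus strand. Ccl22 (94745590 to 94751699) and Ccl17 (94810453 to 94812036) are plus-strand neighbours on chromosome 8, and Ccl24 (135569937 to 135573049, minus strand) lies alone on chromosome 5. No exonic base of the 10 genes overlapped another annotated gene. The span of Ccl6 is crossed on the opposite strand by E230016K23Rik (whether reads were counted by strand is not given in the sources used here). When transcripts were compared in stretches of 50 bases, Ccl9 shared 59 of its 2996 stretches with other genes, none of them a CC chemokine gene, and the other 9 shared none.

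The RefSeq promoter table (GRCm38.p6) held 5 of the 10 genes: Ccl3, Ccl6, Ccl9, Ccl17 and Ccl22. The 250 bases before the start of 3 genes of the chromosome 11 cluster are shown because they stand next to each other and Ccl9 was called higher after IL-33 while Ccl6 and Ccl3 were not called. All are written 5′ to 3′ on the minus strand, from chr11:83578637-83578886 for Ccl9, chr11:83593088-83593337 for Ccl6 and chr11:83649379-83649628 for Ccl3. Capitals mark matches on either strand to a κB motif (the 10-base NF-κB consensus), an AP-1 motif (TGANTCA) or a C/EBP motif (TTNNGNAA).
Ccl9: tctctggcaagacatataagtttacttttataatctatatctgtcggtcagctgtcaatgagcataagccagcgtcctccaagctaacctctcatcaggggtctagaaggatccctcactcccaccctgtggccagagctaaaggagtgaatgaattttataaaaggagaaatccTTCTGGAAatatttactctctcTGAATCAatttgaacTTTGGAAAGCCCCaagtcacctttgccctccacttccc
Ccl6: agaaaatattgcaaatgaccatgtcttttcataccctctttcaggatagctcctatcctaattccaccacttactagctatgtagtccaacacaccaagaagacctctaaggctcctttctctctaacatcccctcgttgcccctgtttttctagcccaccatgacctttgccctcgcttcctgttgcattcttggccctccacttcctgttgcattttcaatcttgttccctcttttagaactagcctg
Ccl3: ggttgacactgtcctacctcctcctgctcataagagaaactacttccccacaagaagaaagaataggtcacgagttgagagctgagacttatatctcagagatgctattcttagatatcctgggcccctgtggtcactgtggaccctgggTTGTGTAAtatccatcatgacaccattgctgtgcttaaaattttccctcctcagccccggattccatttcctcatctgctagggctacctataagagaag
In the Ccl9 window a κB match lay 35 to 26 bases before the start, on the opposite strand, and overlapped a C/EBP match at 38 to 31. An AP-1 match lay at 53 to 47 and a second C/EBP match at 75 to 68. Ccl3 had a single C/EBP match, 100 to 93 bases before its start. The Ccl6 window held no match to these 3 motifs, nor to the STAT6 consensus, the TATA box or the GATA motif. Ccl9 also had matches to the TATA box, searched as TATAAA on both strands, at 224 to 219, at 94 to 89 and, overlapping that, at 92 to 87. Ccl17 matched the STAT6 consensus at 154 to 145 and the GATA motif, searched as AGATAA, at 109 to 104, and Ccl22 matched none of the 6. Among 32851 promoter windows of this length, 7.25% held a κB match, 6.75% an AP-1 match, 36.9% a C/EBP match, 5.85% a STAT6 match, 12.4% a TATA match and 9.99% a GATA match. A match describes the letters and is not evidence of binding. The longest run shared by the Ccl6 and Ccl9 windows was 13 bases, gccctccacttcc, 55 to 43 bases before the Ccl6 start and 14 to 2 before the Ccl9 start. Each shared no more than 8 bases in a row with the Ccl3 window.

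Ccl6 and Ccl9, which both signal through the receptor Ccr1 and are made by myeloid cells of the mouse, were the first pair compared. Ccl9 rose after IL-33, and Ccl6 was not called. Normalized counts of Ccl9 in PBS replicates 1, 2 and 3 were 713, 531 and 862, with a mean of 702 ± 166 (SD, n = 3). After IL-33 they were 1775, 1869 and 1629, with a mean of 1757 ± 121 (SD, n = 3). Every IL-33 library lay above every PBS library, as for 25.5% of all genes tested. The log2 fold change was 1.35 (SE 0.20, limma adjusted p = 0.0030), and 1.34 without IL-33 replicate 1, where 28.3% of all genes were higher. The change rested on 2882 reads in PBS and 4150 in IL-33 libraries. It was also called by edgeR (1.31, adjusted p = 0.00331; 18.1% of genes higher) and DESeq2 (1.32, adjusted p = 3.99e-07; 21.1% higher).

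Ccl6 was the most abundant of the 10 genes in every library. Its normalized counts were 7837, 7685 and 10743 in PBS (8755 ± 1723, SD, n = 3) and 8672, 5846 and 8688 after IL-33 (7735 ± 1636, SD, n = 3). The groups overlapped, with the lowest value in IL-33 replicate 2 and the highest in PBS replicate 3. Its log2 fold change was −0.18 (SE 0.22, limma adjusted p = 0.528), from 36025 reads in PBS and 18572 in IL-33 libraries. With quantile normalization Ccl6 was called lower (−0.92, adjusted p = 0.0105; 16.5% of genes lower).

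Of the summed normalized counts of the 10 genes, Ccl6 made up 81.4, 86.9 and 87.2% in the PBS libraries and 65.9, 65.8 and 77.97% in the IL-33 libraries. Ccl9 made up 7.41, 6.005 and 7.003% in PBS and 13.5, 21.0 and 14.6% after IL-33. The sum itself ranged from 8845 to 12316 in PBS and from 8883 to 13159 after IL-33. The groups overlapped in the sum and did not overlap in either share. Shares and ratios of counts are not corrected for gene length and do not rank the genes against each other. The log2 ratio of Ccl6 to Ccl9 within a library, which does not depend on how libraries were scaled, was 3.46, 3.85 and 3.64 in PBS and 2.29, 1.64 and 2.41 after IL-33. Means were 3.65 ± 0.20 and 2.12 ± 0.41 (SD, n = 3 each), a difference of −1.53 that corresponds to a geometric mean ratio of 12.5 in PBS and 4.33 after IL-33. The groups did not overlap. In a two-sided exact permutation test p was 0.10, the smallest that 3 against 3 libraries can give, and 0.15 when adjusted over the 3 ratios tested.

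**Figure D2:**
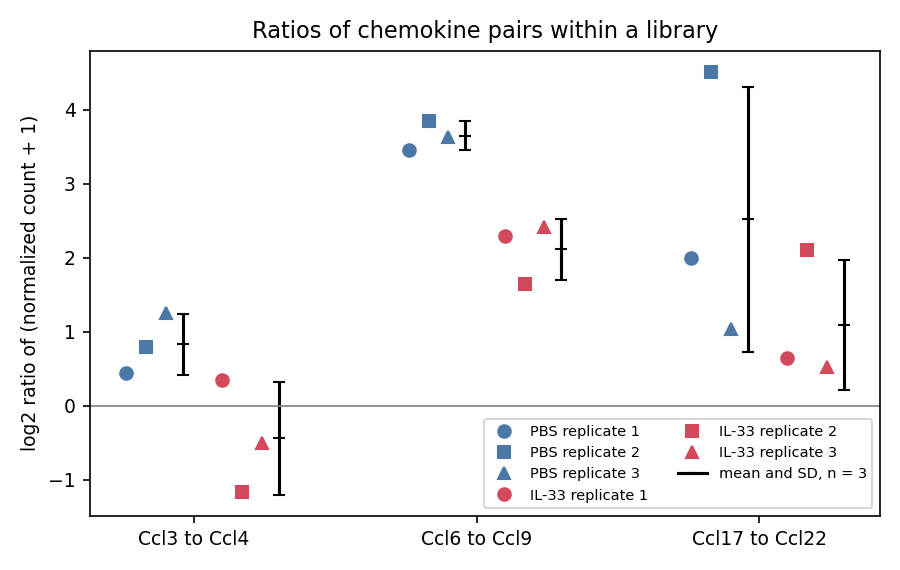
Log2 ratio within each library of Ccl3 to Ccl4, Ccl6 to Ccl9 and Ccl17 to Ccl22, from normalized count plus 1, in PBS (blue) and IL-33 (red) libraries; black bars are the mean and SD of 3. The Ccl3 to Ccl4 and Ccl6 to Ccl9 ratios lie lower in all 3 IL-33 libraries than in all 3 PBS libraries, and the Ccl17 to Ccl22 ratios overlap.

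Ccl4 and Ccl3 are the macrophage inflammatory proteins 1β and 1α. Both attract leukocytes, and Ccl3 binds Ccr1. Ccl4 rose after IL-33, while Ccl3 was high in only 1 of the 3 IL-33 libraries. Ccl4 had normalized counts of 436, 221 and 203 in PBS (287 ± 129, SD, n = 3) and 1173, 786 and 473 after IL-33 (811 ± 351, SD, n = 3). The groups did not overlap, although PBS replicate 1 (436) and IL-33 replicate 3 (473) were close. A log2 fold change of 1.49 (SE 0.39, limma adjusted p = 0.0228) was obtained from 1156 reads in PBS and 2095 in IL-33 libraries. The call was lost on leaving out PBS replicate 2 (1.35, adjusted p = 0.0893), PBS replicate 3 (1.29, adjusted p = 0.0986) or IL-33 replicate 2 (1.46, adjusted p = 0.0787). Without IL-33 replicate 1 the value was 1.17 (adjusted p = 0.00682), and the count tests called it as well (edgeR 1.49, adjusted p = 0.0226; DESeq2 1.502, adjusted p = 0.00167).

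Ccl3 had normalized counts of 590, 384 and 488 in PBS (487 ± 103, SD, n = 3) and 1501, 351 and 332 after IL-33 (728 ± 669, SD, n = 3). IL-33 replicate 1 lay above all PBS libraries and IL-33 replicates 2 and 3 below all of them. The fold change was 0.22 on the log2 scale (SE 0.53, limma adjusted p = 0.767), from 1986 reads in PBS and 2093 in IL-33 libraries. Without IL-33 replicate 1 it was −0.49 (adjusted p = 0.0405), a call as lower in a fit that called 28.2% of all genes lower. IL-33 replicate 1 alone, assumed to vary like the PBS libraries, differed from PBS by 1.64 (adjusted p = 9.04e-05; 19.0% of genes higher). The Rn45s share of that library (24.3%) was within the range of PBS, and those of replicates 2 and 3 (59.6 and 54.8%) were above it. With the Rn45s share as a covariate the Ccl3 difference was 1.70 (adjusted p = 0.0151, 8.67% of genes higher) and that of Ccl4 1.94. Treatment and a high share went together in IL-33 replicates 2 and 3. For any gene, the covariate fit therefore leaned on IL-33 replicate 1 and is not a separate result.

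Within libraries the ratio of these neighbours was lower in all 3 IL-33 libraries than in all 3 PBS libraries. The log2 ratio of Ccl3 to Ccl4 was 0.44, 0.79 and 1.26 in PBS (0.83 ± 0.41, SD, n = 3) and 0.35, −1.16 and −0.51 after IL-33 (−0.44 ± 0.76, SD, n = 3). PBS replicate 1 and IL-33 replicate 1 were the closest pair. The geometric mean ratio was 1.78 in PBS and 0.738 after IL-33, and the log2 difference was −1.27. An exact permutation test gave p = 0.10, the smallest it allows, and 0.15 after adjustment over the 3 ratios. Without IL-33 replicate 1 the difference was −1.66, and without IL-33 replicate 2 it was −0.91.

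These calls depended on the scaling of the libraries. Scaling to equal totals put the median over all genes tested at −1.06, and leaving Rn45s out of the totals put it at −0.45, against −0.03 as deposited. Both scalings shift all genes of a library alike, so a gene's place relative to that median is nearly fixed by construction (as deposited, 1.38 for Ccl9, 1.52 for Ccl4, −0.15 for Ccl6 and 0.25 for Ccl3). Quantile normalization, which is no such shift, gave 1.06, 1.39, −0.86 and 0.09 relative to its own median. Without subtraction of the median, equal totals gave 0.31 for Ccl9 (adjusted p = 0.479) and 0.45 for Ccl4 (adjusted p = 0.478), in a fit that called 2.5% of genes higher and 50.1% lower. In that fit Ccl6 was called lower (−1.23, adjusted p = 0.0303). Equal totals without Rn45s gave 0.92 for Ccl9 (adjusted p = 0.0117; 9.02% of genes higher) and 1.06 for Ccl4 (adjusted p = 0.0625).

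**Figure D3:**
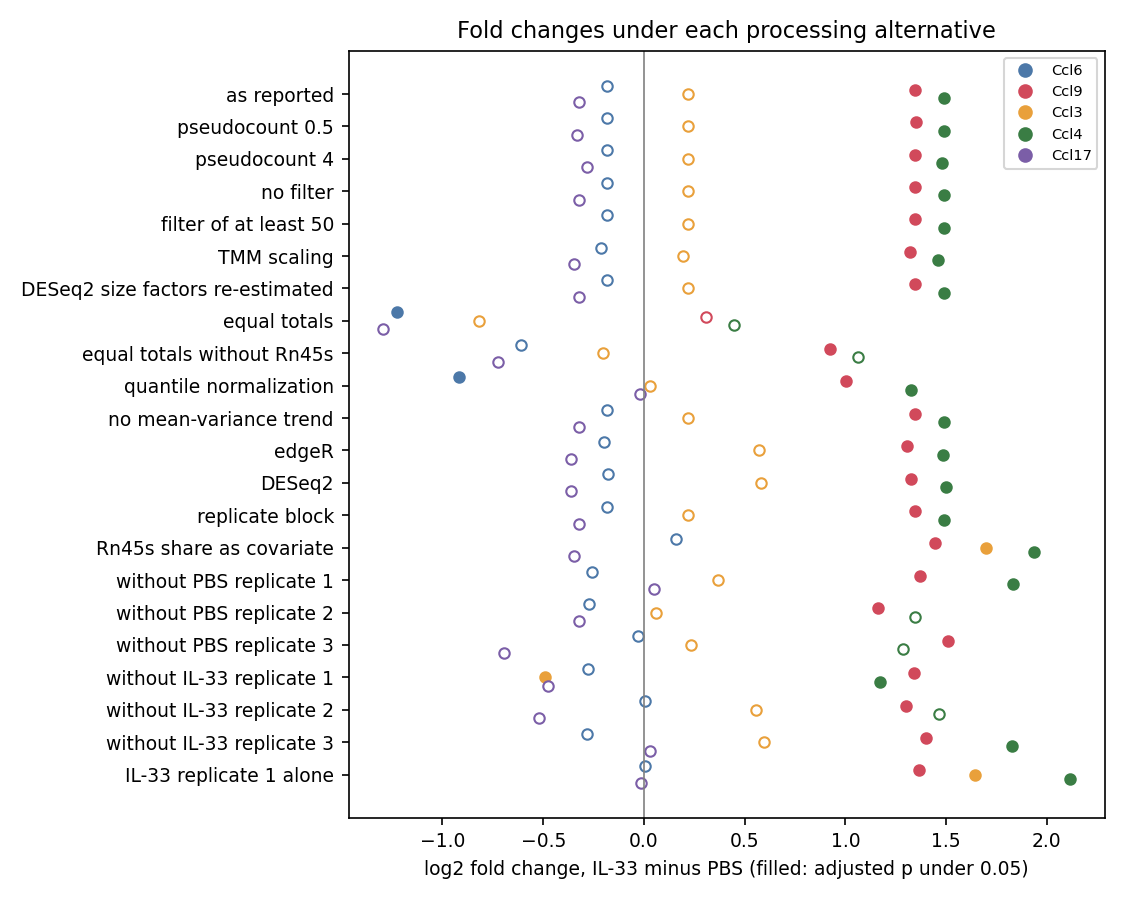
Log2 fold change (IL-33 minus PBS) of the 5 CC chemokine genes tested, under the processing as reported and each alternative; filled points have an adjusted p under 0.05. Ccl9 is filled everywhere except with equal totals, Ccl4 is unfilled in 5 settings, and Ccl3 lies on both sides of 0.

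Ccl17 and Ccl22 are the ligands of Ccr4, a receptor of type 2 helper T cells, and both were low. Ccl17 had normalized counts of 37.3, 21.8 and 12.6 in PBS and 21.6, 23.1 and 10.2 after IL-33, with means of 23.9 ± 12.5 and 18.3 ± 7.06 (SD, n = 3 each). The groups overlapped, and the log2 fold change was −0.32 (SE 0.48, limma adjusted p = 0.615). It rested on 96 and 45 reads, and the ratio of IL-33 to PBS, with libraries scaled as deposited, was 0.816 (95% exact interval 0.559 to 1.17). Such intervals cover counting error only, because the libraries carry no molecular identifiers and copies of a molecule are counted as reads. Ccl22 had 11, 0 and 8 reads in PBS and 15, 3 and 4 after IL-33, that is, normalized counts of 8.54, 0 and 5.59 and of 13.5, 4.61 and 6.78. The groups overlapped and only IL-33 replicate 1 reached a count of 10, so no test was made. The scaled ratio of its reads was 2.01 (1.04 to 3.94). The log2 ratio of Ccl17 to Ccl22 was 2.00, 4.51 and 1.04 in PBS and 0.64, 2.10 and 0.52 after IL-33. These overlapped, with a difference of −1.43 and an exact permutation p of 0.3. The 4.51 came from PBS replicate 2, which had 0 Ccl22 reads, so the added 1 set its size. With 0.5 or 4 added instead, the difference was −1.74 or −0.87.

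The ligands of Ccr3, the receptor through which eosinophils themselves are recruited, were at the edge of detection or unread. Ccl24, eotaxin-2, had 2, 2 and 1 reads in PBS and 3, 3 and 1 after IL-33 (normalized counts 1.55, 1.46 and 0.699, and 2.70, 4.61 and 1.69). The IL-33 values were the higher ones without overlap, but a single read was worth 0.699 to 1.69 normalized counts, and the scaled ratio of 2.44 had an interval of 0.665 to 9.73. Ccl5, also called RANTES and a ligand of Ccr1 and Ccr3, had 0, 1 and 1 reads in PBS and 1, 0 and 1 after IL-33. Its scaled ratio was 1.74, with an interval of 0.126 to 24.0. For Ccl11, eotaxin-1, and for Ccl2, the monocyte attractant that binds Ccr2, 0 reads in a group allow a mean normalized count of up to 0.733 in PBS and 1.275 after IL-33 (3 counts over the 3 libraries of the group, for counting error).

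Levels of different genes can be compared only per length. Per kilobase of annotated exon, mean normalized counts in PBS were 4877 ± 960 for Ccl6, 636 ± 134 for Ccl3, 434 ± 196 for Ccl4, 231 ± 54.5 for Ccl9 and 46.5 ± 24.3 for Ccl17 (SD, n = 3 each). Ccl22 followed at 2.03 ± 1.87, Ccl24 at 0.954 ± 0.361 and Ccl5 at 0.495 ± 0.429. In this order Ccl3 and Ccl4 overlapped between libraries (502 to 771 and 308 to 660), as did Ccl22 with Ccl24 and Ccl24 with Ccl5. All other neighbours in the order were separate. After IL-33 the order was Ccl6 at 4309 ± 912, Ccl4 at 1228 ± 532, Ccl3 at 950 ± 874, Ccl9 at 577 ± 39.7 and Ccl17 at 35.5 ± 13.7. Ccl3 (434 to 1959) then overlapped both Ccl4 (716 to 1778) and Ccl9 (535 to 614), while Ccl4 and Ccl9 were separate. Ccl22, Ccl24 and Ccl5 were the lowest of those read, at 3.57 ± 1.99, 2.32 ± 1.15 and 0.901 ± 0.883, each overlapping the next.

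The other CC chemokine genes added little. Of 14 further ones in the table none passed the filter, and 10 had no read in any library: Ccl1, Ccl8, Ccl12, Ccl19, Ccl20, Ccl21a, Ccl21b, Ccl21c, Ccl26 and Ccl27b. Ccl25, a thymic and intestinal chemokine, was the highest of the remaining 4, with normalized counts of 12.4, 8.003 and 9.78 in PBS and 5.39, 4.61 and 3.39 after IL-33. The groups did not overlap, at counts too low to be tested. Ccl7, which lies between Ccl2 and Ccl11, had 0 reads in all PBS libraries and 3, 0 and 1 after IL-33.

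Ccr2 and Ccr3, receptors of these ligands, were called lower after IL-33, and Ccr1 was not called. Of 14 CC chemokine receptor and atypical receptor genes examined, 5 passed the filter, and of these 1 was higher and 3 were lower, with a median log2 fold change of −1.65. With equal totals 0 were higher and 4 lower. Of all genes tested, 17.4% were higher and 14.4% lower as deposited, and 2.5% were higher and 50.1% lower with equal totals. Ccr3, the eotaxin receptor, had normalized counts of 2445, 1810 and 3151 in PBS and 1882, 627 and 383 after IL-33. The groups overlapped through IL-33 replicate 1, and the log2 fold change was −1.65 (SE 0.52, limma adjusted p = 0.042). Without IL-33 replicate 1 it was −2.29, and with that library alone −0.35. The call was lost without each of the other 5 libraries (adjusted p between 0.0800 and 0.146) and with edgeR (−1.36, adjusted p = 0.0749), and the value was −0.23 with the Rn45s share as a covariate. Ccr1, the receptor of Ccl3, Ccl6 and Ccl9, stood at 860, 579 and 895 in PBS and 842, 292 and 129 after IL-33, again with IL-33 replicate 1 among the PBS values (−1.27, SE 0.58, adjusted p = 0.123). Without that library Ccr1 was called lower (−1.97, adjusted p = 2.16e-04; 28.2% of genes lower), and that library alone gave 0.14.

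Ccr2, the receptor of Ccl2, was lower, at 35.7, 24.7 and 47.5 in PBS and 15.3, 4.61 and 8.47 after IL-33 (−1.91, SE 0.46, adjusted p = 0.0173). Ccr1l1, a receptor-like gene related to Ccr1, was also lower, at 25.6, 16.7 and 21.0 against 4.50, 6.15 and 1.69 (−2.21, SE 0.47, adjusted p = 0.0116). Neither of these groups overlapped. Leaving out PBS replicate 1 or 3 ended the call of Ccr2 (adjusted p = 0.0632 and 0.0920) and of Ccr1l1 (0.0564 and 0.0634), and leaving out IL-33 replicate 2 that of Ccr2 (0.0519). With the Rn45s share as a covariate neither was called (Ccr2 −0.91, adjusted p = 0.263; Ccr1l1 −2.10, adjusted p = 0.0860).

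Ccrl2, an atypical receptor that binds the attractant chemerin, was the receptor gene called higher among those that passed the filter. It had 103, 31.3 and 65.0 in PBS and 555, 185 and 171 after IL-33, with no overlap (2.11, SE 0.54, adjusted p = 0.0217). The call was lost on leaving out PBS replicate 2 (1.65, adjusted p = 0.0785) or PBS replicate 3 (2.17, adjusted p = 0.0738), and with equal totals (1.08, adjusted p = 0.204). Without IL-33 replicate 1, which was the highest library, the value was 1.56 (adjusted p = 0.00474). With no filter on low values, where 10.1% of genes were higher, Ccr10, a receptor of skin-homing lymphocytes, was called too (1.64, adjusted p = 0.0212), from 1, 1 and 1 reads in PBS and 4, 3 and 3 after IL-33. Ccr4, the receptor of Ccl17 and Ccl22, had normalized counts of 0, 0 and 0.699 in PBS and 0.899, 1.54 and 3.39 after IL-33, and Ccr8 had no read in any library. The scavenging receptors Ackr1, Ackr2 and Ackr4, listed under the older symbols Darc, Ccbp2 and Ccrl1, were below 10 in every library.

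**Figure D4:**
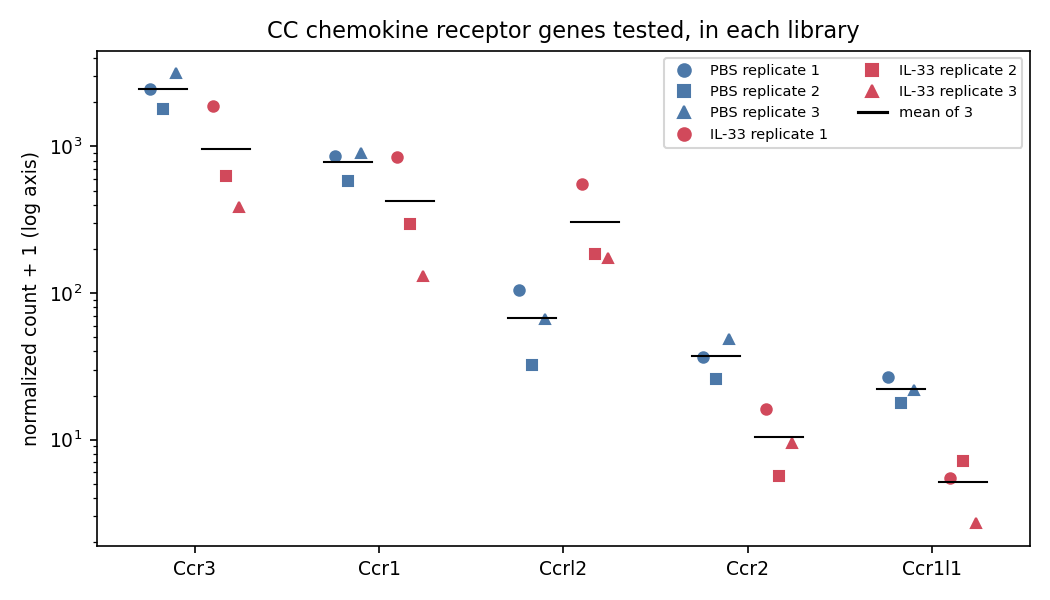
Normalized count plus 1 (log axis) of 5 CC chemokine receptor genes tested, in each PBS (blue) and IL-33 (red) library; bars are the mean of 3. IL-33 replicate 1 (red circle) is the highest IL-33 library in 4 of the 5 genes, and Ccrl2 alone is higher in all IL-33 libraries than in all PBS libraries.

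Genes of NF-κB, AP-1, C/EBP and STAT6 transcription factors, which act on chemokine promoters, and genes of NF-κB inhibitors mostly rose. Of 18 tested, 16 were higher and 0 lower, with a median log2 fold change of 2.66, where 17.4% of all genes tested were higher. Scaling to equal totals left 11 higher and 2 lower (median 1.62), where 2.5% of all genes tested were higher and 50.1% lower. The 5 largest were Tnfaip3 (3.81, SE 0.23), which encodes the NF-κB inhibitor A20, the nuclear IκB proteins Bcl3 (3.61, SE 0.21) and Nfkbiz (3.41, SE 0.29), and the NF-κB subunits Nfkb2 (3.40, SE 0.15) and Nfkb1 (3.12, SE 0.17), each with an adjusted p below that of Ccl9. Fos (−0.47, adjusted p = 0.119) and Fosl2 (−0.06, adjusted p = 0.778) were the 2 not called.

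Among 9 genes of proteins that bind chemokine transcripts and set their decay, 4 were higher and 0 lower, where 17.4% of all genes tested were higher. Their median of 0.61 turned to −0.43 with equal totals (1 higher, 2 lower), where 50.1% of all genes tested were lower. The 4 higher ones were Zc3h12a (3.79, SE 0.17, adjusted p = 1.96e-05), the endonuclease Regnase-1, Zfp36l1 (1.04, SE 0.29, adjusted p = 0.0276), Zfp36 (0.79, SE 0.20, adjusted p = 0.0211), which encodes tristetraprolin, and Rc3h2 (0.77, SE 0.18, adjusted p = 0.0168). Of 8 tested genes for proteases and proteoglycans that trim or bind chemokines, 2 were higher and 0 lower, against the same 17.4% of all genes higher. Their median of 0.32 turned to −0.68 with equal totals (0 higher, 3 lower, against the same 50.1% of all genes lower) and to −0.09 without Rn45s. The 2 higher ones were the heparan sulfate proteoglycans Sdc4 (2.59, SE 0.76, adjusted p = 0.0345) and Gpc1 (1.38, SE 0.25, adjusted p = 0.00674). Sdc4 had 50 reads in PBS and 156 in IL-33 libraries. Its call was lost without PBS replicate 2 (adjusted p = 0.0945), PBS replicate 3 (0.103) or IL-33 replicate 3 (0.0817). With the Rn45s share as a covariate neither gene was called (Sdc4, adjusted p = 0.0758; Gpc1, adjusted p = 0.0658).

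Genes beside the chromosome 11 cluster were also among the 31.9% of all genes tested that were called. The nearest gene tested on the Ccl5 side, Taf15, a component of the general transcription machinery, had normalized counts of 412, 666 and 621 in PBS and 801, 1658 and 3595 after IL-33 (1.60, SE 0.48, limma adjusted p = 0.0365). On the Ccl4 side, Heatr6 had 276, 266 and 274 in PBS and 349, 481 and 844 after IL-33 (0.94, SE 0.30, adjusted p = 0.0451). Inside the cluster E230016K23Rik, the transcript opposite Ccl6, was not called (−0.67, SE 0.46, adjusted p = 0.278). Called and uncalled genes thus lay side by side along this stretch.

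Around the other loci too, the nearest genes that passed the filter were partly called, where 31.9% of all genes tested were called. At 7.768 kb from Ccl17, Ciapin1, a factor of iron-sulfur protein assembly, rose from 377, 333 and 292 to 1125, 1250.3 and 1319 (1.88, SE 0.17, adjusted p = 3.29e-04). Pllp, 49.3 kb from Ccl22, was not called (−0.56, SE 0.45, adjusted p = 0.356), and Cx3cl1, the fractalkine gene between Ccl22 and Ccl17, had at most 2 reads in a library. The Ccl2 and Ccl11 group had no gene tested close by: Tmem98, 1214 kb from Ccl2, was higher (1.57, SE 0.36, adjusted p = 0.0151) and Zfp830, 701 kb from Ccl11, was not called (0.06, SE 0.18, adjusted p = 0.806). Of the genes nearest to Ccl24, Rhbdd2, at 59.6 kb, was higher (0.86, SE 0.21, adjusted p = 0.0172) and Hip1, at 24.8 kb, was not called (−0.94, SE 0.39, adjusted p = 0.0981).

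**Figure D5:**
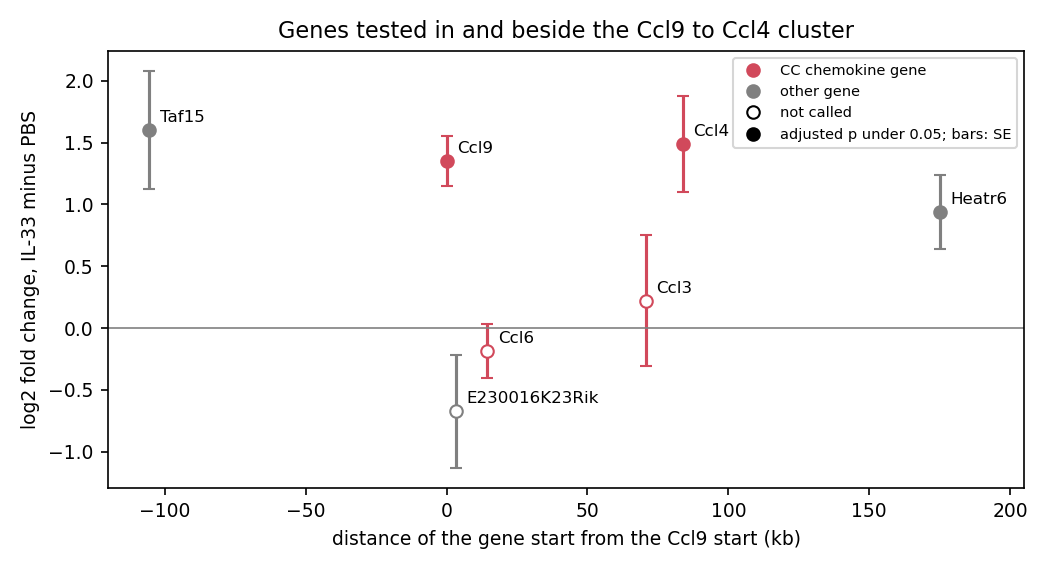
Log2 fold change (IL-33 minus PBS, bars SE) of the genes tested in and beside the chromosome 11 cluster, against the distance in kilobases of each gene start from that of Ccl9; chemokine genes are red, others grey, and filled points have an adjusted p under 0.05. Ccl9, Ccl4, Taf15 and Heatr6 are filled above 0, with E230016K23Rik, Ccl6 and Ccl3 unfilled between Ccl9 and Ccl4.

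Likeness of pattern was taken over the 6 libraries among the 7610 genes tested whose normalized counts averaged 50 or more. The patterns most like that of Ccl6, by Pearson r of log2(normalized count + 1), were those of Memo1 (0.984), Asf1a (0.963) and Lsp1 (0.961). None of these 3 was called. Those most like Ccl4, the called chemokine gene with the largest difference, were Pmaip1 (0.998), Mdn1 (0.997) and Ccno (0.995). Pmaip1, which encodes the cell death protein Noxa, had normalized counts of 2320, 1376 and 1355 in PBS and 5392, 4054 and 2478 after IL-33, and, like Ccl4, had its highest value of each group in replicate 1. These correlations describe 6 libraries that share their groups and carry no test.

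Markers of other cell types that a marrow culture could hold moved in part with the treatment. For monocytes and macrophages, a source of Ccl3, Ccl4 and Ccl9, the summed normalized count of 12 markers was 9010 to 11560 in PBS and 25219 to 32060 after IL-33, and 3 of 7 tested were higher and 0 lower (1 higher and 2 lower with equal totals). Emr1, the gene of the F4/80 antigen, which mouse eosinophils carry too, made up most of that sum, at 8913, 6636 and 8067 in PBS and 26459, 20494 and 19139 after IL-33 (1.48, SE 0.19, adjusted p = 0.00154). Cd14 (3.68, SE 0.28, adjusted p = 1.72e-04) and Csf1r (1.40, SE 0.16, adjusted p = 9.49e-04) were the other two. Marco had no read in any library, and Cx3cr1, C1qa and C1qc were below 10 throughout. For dendritic cells, a source of Ccl17 and Ccl22, the 12 markers summed to 419 to 853 in PBS and 726 to 1270 after IL-33. H2-Ab1 (1.29, adjusted p = 0.0440) and Itgax (0.74, adjusted p = 0.0325) were higher of 6 tested (0 called with equal totals), and Flt3, Zbtb46, Clec9a, Xcr1, Cd209a and Siglech were below 10 in every library. The part of either cell type in the chemokine values was not tested.

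Mast cell and basophil markers summed to 1767 to 3245 in PBS and 2708 to 4267 after IL-33, most of it from the histidine decarboxylase gene Hdc, at 3058, 1476 and 1291 in PBS and 4136, 3253 and 2352 after IL-33 (0.81, SE 0.34, adjusted p = 0.1001). Of 7 tested, Cpa3 (−2.81, adjusted p = 0.00228) and Ms4a2 (−1.81, adjusted p = 0.0309) were lower and none was higher, and Mcpt1, Mcpt2 and Mcpt4 had no read. Neutrophil markers, a list of 12 of which 11 were found, summed to 2993 to 3616 and 2390 to 3139. S100a9 (−1.54, adjusted p = 0.0417), Mpo (−1.24, adjusted p = 0.00821) and Cxcr2 (−1.24, adjusted p = 0.0373) were lower of 10 tested. Lymphoid markers summed to 74.2 to 91.6 and 47.5 to 89.9, and 0 of 2 tested were called, Cd79a at −0.52 (adjusted p = 0.132) and Cd3d at 0.30 (adjusted p = 0.557). Stromal and endothelial markers summed to 1489 to 1626 and 1051 to 1632, and 0 of 3 tested were called, with Pdgfrb at 0.61 (adjusted p = 0.151) and Pecam1 at −0.38 (adjusted p = 0.190). Dcn, Lum and Cxcl12 had no read in any library. With equal totals, where 50.1% of all genes tested were lower, 4 of the 7 mast cell and basophil markers, 7 of the 10 neutrophil, 1 of the 2 lymphoid and 1 of the 3 stromal and endothelial markers were called, all lower.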

How the data were processed

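The 6 libraries were rRNA-depleted total RNA made with a directional kit, per the labels' protocols. The authors deposited a signal, normalized counts per gene, made by dividing the counts of a library by a single size factor. Per the submitters' processing notes the tools were HISAT2, HTSeq and DESeq2 with mm10. Versions, annotation and strand setting: not given in the sources used here. Because all values of a library were multiples of a smallest step, reads could be recovered, and 100% of values were whole within 0.1 of a read.

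Groups were compared with limma 3.58.1 in R 4.3.3 (mean-variance trend, two-sided) on log2(normalized count + 1). The filter kept 10544 genes that reached a normalized count of 10 in 3 or more libraries. P-values were adjusted over all of these genes by the Benjamini-Hochberg method, and a call is an adjusted p under 0.05. Log2 ratios of gene pairs were compared by an exact permutation test. Counting intervals for a ratio of reads are 95% exact intervals. In a simulated IL-33 minus PBS comparison of 10388 genes, limma recovered 28% of genes changed 2-fold and 96% of genes changed 4-fold, with 3 false calls. The simulation drew each gene independently and held no shift shared by the genes of a library. It therefore does not give the error rate of the calls made here.

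Alternatives were pseudocounts of 0.5 and 4, no filter, a filter at 50, TMM, DESeq2 size factors, equal totals with and without Rn45s, quantile normalization, no trend, count tests of the reads (DESeq2 1.42.0 and the quasi-likelihood test of edgeR 4.0.16), a replicate block, the Rn45s share as a covariate, leaving out each library (on the 10544 genes), and IL-33 replicate 1 alone.

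The chemokine genes, the gene lists and the alternatives were chosen with earlier results of these data known. Named were all 10 chemokine genes and the receptor genes Ccr1, Ccr3 and Ccr4; a further receptor gene is not reported here and was left out of the receptor list. Of each other list, up to 5 called genes per direction were named by size, or, with fewer than 2 called, the 2 with the smallest p. Also named were genes tested inside or nearest to each cluster, and the 3 genes most like the most abundant and the most changed called chemokine gene. Fos, Fosl2, Ccl7, Ccl25, Cx3cl1, Hdc, Ccr8, Ccr10 and the genes given as unread or below 10 were chosen after their values were seen. Older symbols were matched through RefSeq synonyms. Siglecf, Ly6g and Trbc2, which had no single match, were not used here.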

Additional observations from a re-analysis of the deposited data

How the results depend on the processing

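Ccl9 kept its direction under every alternative run and its call under all except equal totals (0.31). Ccl4 kept its direction throughout and lost its call with equal totals (0.45), with equal totals without Rn45s (1.06) and on leaving out PBS replicate 2, PBS replicate 3 or IL-33 replicate 2. Ccl3 reversed with equal totals (−0.82) and equal totals without Rn45s (−0.20), and ranged from −0.49 (without IL-33 replicate 1) to 0.60 with a library left out. Ccl6 reversed, uncalled, with the Rn45s covariate (0.16) and IL-33 replicate 1 alone (0.0038), and ranged from −0.28 to 0.0051 with a library left out. Ccl17 ranged from −0.70 to 0.051 with a library left out, above 0 without PBS replicate 1 or without IL-33 replicate 3. The cause of these shifts was not tested.

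Of 5 CC chemokine genes tested, 2 were called as reported, 1 with equal totals (Ccl6, lower) and 1 with equal totals without Rn45s (Ccl9). The number was 3 with quantile normalization (2 higher, 1 lower), 3 with the Rn45s covariate (all higher), and 1 to 3 with a library left out. For receptors it was 4 as reported, 2 with a filter at 50 (fewer genes tested), 1 with the Rn45s covariate, and 0 to 5 with a library left out. Over all genes 3359 were called (1837 higher, 1522 lower), 5551 with equal totals (264 higher, 5287 lower), 4521 with equal totals without Rn45s (951 higher, 3570 lower), 1556 with the Rn45s covariate and 1060 to 5960 with a library left out. With a library left out the Ccl3 to Ccl4 difference ranged from −1.66 to −0.91, that of Ccl6 to Ccl9 from −1.68 to −1.30 and that of Ccl17 to Ccl22 from −2.17 to −0.44.

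Whether replicate numbers pair the libraries is not stated in the labels. Deviations of same-numbered libraries from their group means correlated at 0.046, 0.24 and −0.16. Not every library correlated best with its own number, but so few libraries cannot settle whether they were paired. With the replicate block 2918 genes, 2 chemokine genes (Ccl4, adjusted p = 0.00479; Ccl9, adjusted p = 0.00786) and 4 receptors were called, and the 3 ratio differences were −1.27, −1.53 and −1.43, each with an exact p of 0.25, the smallest that 3 pairs allow. Depth limits Ccl5, Ccl22 and Ccl24, with at most 22 reads in a group.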

Other observations

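IL-33 replicate 1 was the highest of the 3 IL-33 libraries in 4 of the 5 receptor genes tested (80%) and in 2 of the 5 chemokine genes tested (40%). Over all genes tested it was the highest in 41.7%, replicate 2 in 19.9% and replicate 3 in 38.4%. Ccl3, Ccl4, Ccr1, Ccr2, Ccr3 and Ccrl2 were the 6 genes concerned, and Ccr1l1 was the receptor gene with its highest IL-33 value in replicate 2. Ccl6 had its highest IL-33 value in replicate 3 and Ccl9 and Ccl17 in replicate 2. These counts carry no test, and the groups they describe are single libraries.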
